A study of Mus musculus with 16 samples.

Results

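The genes described are Ptgs2, Ccl2, Ccl7, Cxcl1 and Il6, a set of inflammatory mediators chosen by gene symbol. Rows for 4 of the 5 were found among the 13474 genes measured, and Il6 was not analysed here. The RNA came from mesenchymal stem/progenitor cells cultured from C57BL/6 mouse marrow (passage 5 to 10), stromal cells able to become osteoblasts, chondrocytes or adipocytes. Cells were wild type (WT) or were labelled as knockouts (KO) of Zfp384, the gene of the nuclear zinc finger protein Nmp4. At day 3 the untreated cultures, seeded at 25 cells per mm2, were in Mesencult medium with its stimulatory supplement, which does not induce differentiation. At day 7 the cultures, seeded at 62 cells per mm2 in α-MEM with 10% fetal bovine serum, had received 5 µg/mL ascorbic acid, 10 nM dexamethasone (a synthetic glucocorticoid) and 10 mM glycerol 2-phosphate (BGP) from 48 hours on. They are described as early osteogenic cells. Each of the 4 groups (WT and KO at day 3, WT and KO at day 7) held 4 poly(A)-selected libraries, 16 in all. Density, medium, serum, treatment and time therefore changed together between days and cannot be told apart. By the series text each condition had 4 technical replicates of 1 biological replicate. The p-values therefore reflect only well-to-well spread, and genotype cannot be told apart from culture.

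Total counts were 36133472 to 47635039 reads in WT day 3 libraries and 31285188 to 38093753 in day 3 libraries labelled KO. They were 33980456 to 36528132 in WT day 7 libraries and 32919372 to 41440013 in day 7 libraries labelled KO. Levels are given in CPM, computed from the deposited counts with TMM-scaled library sizes, as mean ± SD over n = 4 libraries. A gene was called changed at an adjusted p under 0.05 in edgeR's quasi-likelihood test over all genes. A second scaling used the sizes by which the authors' deposited scaled columns divide the counts (the authors' implied sizes). It moved the median log2 fold change of all genes, labelled KO against WT, from -0.004 to 0.49 at day 3 and from -0.03 to 0.55 at day 7. Zfp384 RNA was 81.8 ± 1.54 CPM in WT and 91.5 ± 1.73 CPM in libraries labelled KO at day 3, and 88.1 ± 3.17 against 117 ± 5.04 CPM at day 7. The targeted gene was thus higher at both days, with log2 fold changes of 0.16 ± 0.04 (SE) and 0.41 ± 0.04. Which part of the gene was deleted was not given in the sources used here. A count over the whole gene therefore checks no label, and KO stands for the label throughout. Stromal progenitor markers (14 of 14) and osteoblast markers (11 of 11) were all measured, and their summed levels, given with the myeloid markers below, differed between genotypes. None of 11 lymphocyte markers was measured, and the 2 measured of 12 neutrophil and mast cell markers summed to between 0.404 and 1.67 CPM.

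Ptgs2 encodes the inducible cyclooxygenase (COX-2), which makes prostaglandin H2, the precursor of prostaglandin E2 and the other prostanoids. Ccl2 and Ccl7 encode the CC chemokines MCP-1 and MCP-3, which draw monocytes through the receptor CCR2. Cxcl1 encodes a CXC chemokine (KC) that draws neutrophils through CXCR2, and Il6 encodes the cytokine interleukin 6. Marrow stromal cells are known to produce all of them. Their genes are classic targets of the NF-kappaB transcription factor. Several of their mRNAs are kept short-lived by AU-rich elements in the 3′ untranslated region (UTR), and glucocorticoids are known to repress them.

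In mm10 coordinates of the deposited table, Ptgs2 lay at chr1:150100124-150108012, with 10 exons and 4145 exonic bases. Cxcl1 lay at chr5:90891245-90893115 with 4 exons and 949 bases. Ccl2 (chr11:82035577-82037452, 3 exons, 806 bases) and Ccl7 (chr11:82045712-82047523, 3 exons, 799 bases) were neighbours in the same orientation, separated by 8259 bases. All 4 lie on the plus strand. The longest stretch that the Ccl2 and Ccl7 transcripts share without a mismatch was 23 bases, shorter than the 100-base reads. A gene on the minus strand, Gm17268 (chr11:82028224-82038562), overlaps all of Ccl2 and was not among the genes measured. The libraries were strand-specific, but the strand setting of the counting was not given in the sources used here. Reads of the 2 genes therefore cannot be told apart.

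RefSeq promoter windows (GRCm38.p6) matched 2 of the 5 genes, Ptgs2 and Cxcl1, and a stretch of each is shown. The Cxcl1 stretch ends just before its first exon. The Ptgs2 stretch runs 50 bases past the RefSeq start (150100031), which lies 93 bases before the first exon of the deposited table. Capitals mark matches, on either strand, to the NF-kappaB pattern (GGG, 5 bases of any kind, CC), to the cyclic AMP response element core TGACG and to the E-box CACGTG. The Ptgs2 stretch is chr1:150099781-150100080 and the Cxcl1 stretch is chr5:90890995-90891244, both on the plus strand, 5′ to 3′.
Ptgs2: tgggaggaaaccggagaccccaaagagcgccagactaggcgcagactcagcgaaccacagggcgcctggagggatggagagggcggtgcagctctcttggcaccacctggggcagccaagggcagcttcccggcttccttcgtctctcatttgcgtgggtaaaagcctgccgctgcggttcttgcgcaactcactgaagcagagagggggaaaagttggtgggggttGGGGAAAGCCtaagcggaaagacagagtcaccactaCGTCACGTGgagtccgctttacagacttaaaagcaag
Cxcl1: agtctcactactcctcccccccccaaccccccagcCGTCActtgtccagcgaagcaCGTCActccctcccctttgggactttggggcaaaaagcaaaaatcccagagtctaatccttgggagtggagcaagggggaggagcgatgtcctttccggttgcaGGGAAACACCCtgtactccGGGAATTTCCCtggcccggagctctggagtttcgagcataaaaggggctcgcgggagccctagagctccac
Both stretches held the NF-kappaB pattern. In Cxcl1 it occurred at 2 places, each matching on both strands with the matches offset by a base. Of 32851 mouse promoter windows of 300 bases, 50.8% held this pattern, 20.8% held TGACG and 7.15% held CACGTG. In the Ptgs2 stretch the TGACG match, on the minus strand, overlapped the E-box, and both lay past the RefSeq start. They began 80 and 77 bases before the first exon of the deposited table. Neither window held the AP-1 pattern TGANTCA, found in 7.81% of windows, or the homopolymer AAAAAA, found in 19.2%. Nmp4 is known to bind homopolymeric A-T runs. These letters are a description of the windows and not of any factor's binding.

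The 3′ UTRs differed in how many AU-rich pentamers they held (annotation GENCODE M21, GRCm38). The pentamer ATTTA, the core of AU-rich elements, occurred 14 times in the 2445 bases of the Ptgs2 3′ UTR, overlaps allowed, and 7 times in the 592 bases of Cxcl1. As many or more were found in 2.31% and 11.9% of 12298 genes. Ccl7 held 2 in 435 bases and Ccl2 held 1 in 275 bases. Per kb, Cxcl1 stood above the others at 11.8, a density reached by 0.642% of genes. Ptgs2 (5.73 per kb, reached by 4.81%), Ccl7 (4.60, 8.18%) and Ccl2 (3.64, 13.6%) lay close together, where the median gene held 1.22 per kb. By density Ptgs2 was therefore nearer to Ccl7 than to Cxcl1. The densest 30 bases of the genes with the most pentamers are shown with ATTTA in capitals, for Ptgs2 at chr1:150105794-150105823 and for Cxcl1 at chr5:90892602-90892631.
Ptgs2: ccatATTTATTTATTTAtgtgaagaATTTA
Cxcl1: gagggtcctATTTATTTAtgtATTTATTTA
The nonamer TTATTTATT was present 1 time in Ptgs2, 2 times in Cxcl1 and 0 times in Ccl2 and Ccl7, and 7.36% of genes held it.

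**Figure D1:**
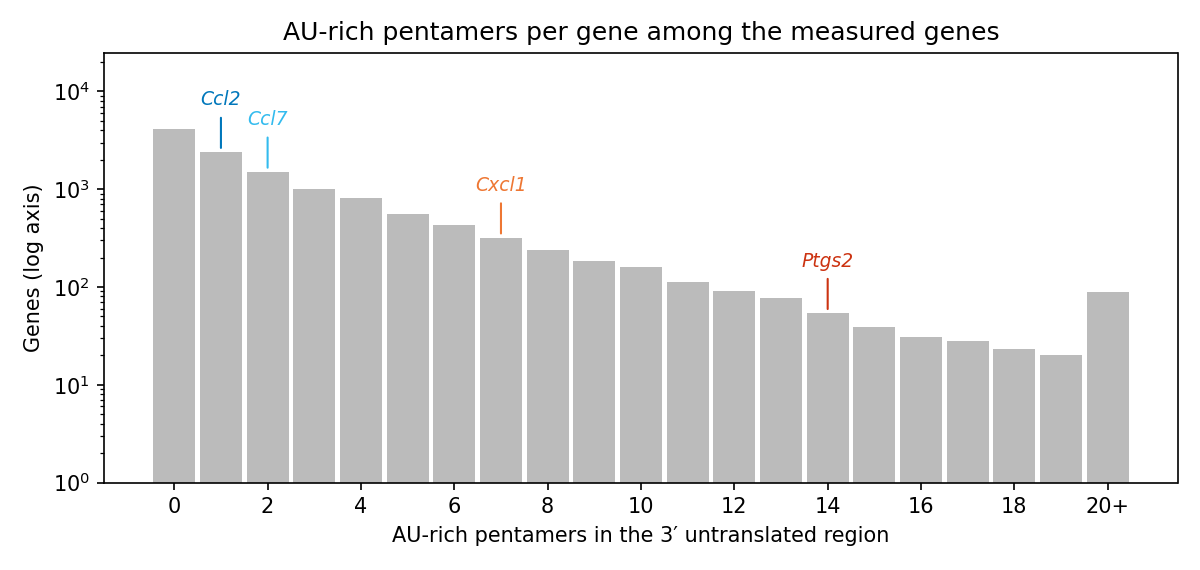
Number of genes (log axis) by the number of AU-rich pentamers (ATTTA in the DNA) in their 3′ UTR, over 12298 measured genes, with the last bar holding genes with 20 or more. Ptgs2 holds 14 and Cxcl1 holds 7, while Ccl7 holds 2 and Ccl2 holds 1, near the median gene with 1.

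At day 3, Ptgs2 and Cxcl1 rose in the libraries labelled KO while Ccl2 and Ccl7 fell. All 4 measured genes were called, against 86.4% of all genes tested (43% higher and 43.4% lower), so being called says little here. The directions and sizes differed between the genes. Ptgs2 RNA was 37.4, 37.1, 35.4 and 35.6 CPM in the WT day 3 libraries and 101, 99.9, 99.7 and 97.9 CPM in those labelled KO. The groups did not overlap, and their coefficients of variation were 2.84% and 1.35%. The share of all genes without overlap was not computed, for this or any other comparison. The 2.74-fold rise gave a log2 fold change of 1.45 ± 0.07 (SE, edgeR adjusted p = 1.1e-15). Cxcl1 RNA was 4.83, 4.71, 4.86 and 4.25 CPM in WT and 14.8, 13.2, 13.5 and 13.9 CPM in the labelled KO. Every labelled KO library stood above every WT library, and the rise was 2.96-fold, a log2 fold change of 1.57 ± 0.09 (edgeR adjusted p = 2.4e-16).

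Ccl7 showed the widest gap of the 4 genes at day 3. Its RNA was 112, 113, 106 and 105 CPM in WT and 7.80, 9.67, 10.9 and 10.9 CPM in the libraries labelled KO. The fall was 11.1-fold, with a log2 fold change of -3.48 ± 0.07 (edgeR adjusted p = 9.5e-25). Its neighbour Ccl2 was at 35.2, 36.9, 32.9 and 34.6 CPM in WT and at 13.6, 12.3, 13.6 and 14.2 CPM in the labelled KO. The groups were apart by less than for Ccl7, a 2.61-fold fall with a log2 fold change of -1.38 ± 0.09 (edgeR adjusted p = 2.11e-12). Genes of chromosome 11 had a median log2 fold change of -0.43 at day 3, against -0.004 over all genes. Relative to that chromosome median the changes were -3.04 for Ccl7 and -0.95 for Ccl2. The part of the chromosome-wide shift in these changes was not tested. Genes of chromosome 5 had a median of 0.16 and those of chromosome 1 had -0.06.

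**Figure D2:**
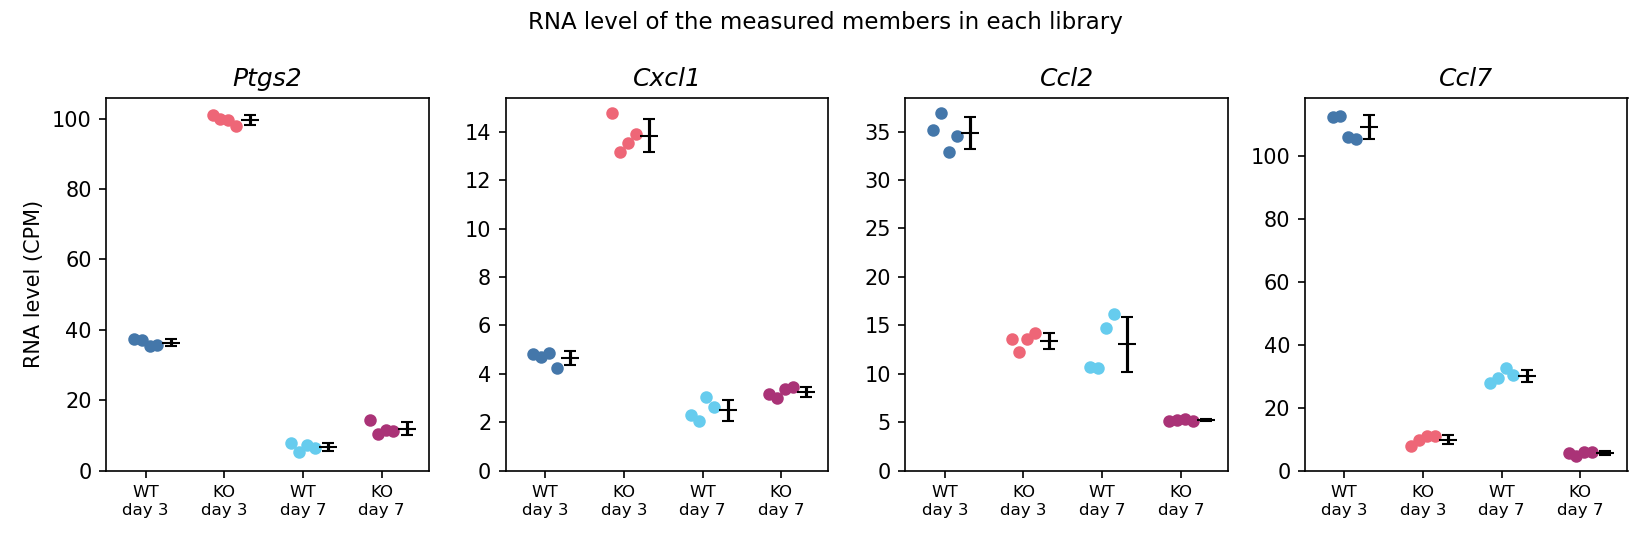
RNA level in CPM (linear axes from 0) of Ptgs2, Cxcl1, Ccl2 and Ccl7 in each library (points, in the order of the replicate codes) with mean and SD over n = 4 (black bars), for WT and libraries labelled KO at each day. Ptgs2 and Cxcl1 peak in the day 3 libraries labelled KO at 99.7 and 13.8 CPM, and Ccl2 and Ccl7 peak in WT at day 3 at 34.9 and 109 CPM.

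At day 7 all 4 genes kept those directions, against 86% of all genes called (41.7% higher and 44.3% lower). Ptgs2 RNA was 7.80, 5.32, 7.35 and 6.34 CPM in WT and 14.5, 10.3, 11.6 and 11.4 CPM in the libraries labelled KO. The groups did not overlap, and the rise was 1.79-fold (log2 fold change 0.84 ± 0.10, edgeR adjusted p = 3.32e-08). Cxcl1 was at 2.28, 2.04, 3.04 and 2.63 CPM in WT and at 3.18, 2.99, 3.36 and 3.45 CPM in the labelled KO. One WT library, 10b at 3.04 CPM, lay above a library labelled KO, so the groups overlapped. The log2 fold change of Cxcl1 was 0.38 ± 0.12 (edgeR adjusted p = 0.00329). It was 0.25 with total counts as library sizes (adjusted p = 0.0437) and 0.96 with the authors' implied sizes (adjusted p = 3.48e-09).

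Ccl7 at day 7 was at 27.9, 29.2, 32.5 and 30.4 CPM in the 4 WT libraries, while those labelled KO held 5.46, 4.65, 5.90 and 5.94 CPM. This 5.46-fold fall was a log2 fold change of -2.45 ± 0.09 (edgeR adjusted p = 4.42e-20). Ccl2 was at 10.7, 10.6, 14.7 and 16.2 CPM in WT and at 5.15, 5.23, 5.34 and 5.14 CPM in the labelled KO. The WT libraries split into a lower and a higher pair, and all stood above the labelled KO libraries. The fall was 2.49-fold (log2 fold change -1.32 ± 0.12, edgeR adjusted p = 2.47e-10). Relative to the chromosome 11 median of -0.46 at day 7, the changes were -1.99 for Ccl7 and -0.86 for Ccl2. With the authors' implied sizes, the Ccl2 change was -0.88 at day 3 and -0.74 at day 7 and remained called.

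Between the days all 4 genes fell in both genotypes. In WT, where 67.3% of all genes were called and 34.9% were called lower, Ptgs2 fell from 36.4 ± 1.03 to 6.70 ± 1.11 CPM, or 5.43-fold. Its log2 fold change of -2.44 ± 0.09 (edgeR adjusted p = 3.11e-17) placed it at percentile 0.445 of all genes ranked from the lowest change. Ccl7 fell 3.64-fold (log2 fold change -1.86 ± 0.06), Ccl2 2.68-fold (-1.42 ± 0.09) and Cxcl1 1.87-fold (-0.91 ± 0.11). No day 7 library of WT overlapped a day 3 library for any of these genes. The share of all genes without such overlap was not computed, so this says little about these genes in particular. Their edgeR adjusted p-values ran from 2.36e-19 for Ccl7 to 1.46e-08 for Cxcl1.

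In the libraries labelled KO, 79.9% of all genes were called between days and 39.3% were called lower. Ptgs2 fell from 99.7 ± 1.35 to 11.9 ± 1.80 CPM, which was 8.33-fold (log2 fold change -3.06 ± 0.08, edgeR adjusted p = 1.1e-20). Cxcl1 fell from 13.8 ± 0.687 to 3.25 ± 0.206 CPM, or 4.26-fold (log2 fold change -2.09 ± 0.09). Ccl2 fell 2.56-fold, from 13.4 ± 0.805 to 5.21 ± 0.0897 CPM. Ccl7, already low at day 3, fell 1.78-fold, from 9.83 ± 1.47 to 5.49 ± 0.599 CPM. The edgeR adjusted p-values of these falls ran to at most 1.02e-08. Again no libraries overlapped between days, with the share of all genes without overlap not computed.

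A genotype by day interaction was called for 3 of the 4 genes. This is near the 66% of all genes with such a call (32.5% higher and 33.5% lower), so being called says little here. The interaction was -0.62 ± 0.12 on the log2 scale for Ptgs2 (edgeR adjusted p = 8.63e-05) and -1.19 ± 0.14 for Cxcl1 (edgeR adjusted p = 2.97e-08). The rise in the labelled KO was thus smaller at day 7 for both. For Ccl7 the interaction was 1.03 ± 0.11 (edgeR adjusted p = 1.42e-08), a smaller fall at day 7. For Ccl2 it was 0.06 ± 0.15 with a 95% interval of -0.24 to 0.37, and it was not called (edgeR adjusted p = 0.719). The genotype and day comparisons share groups of libraries, so their values stand side by side and are not independent.

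**Figure D3:**
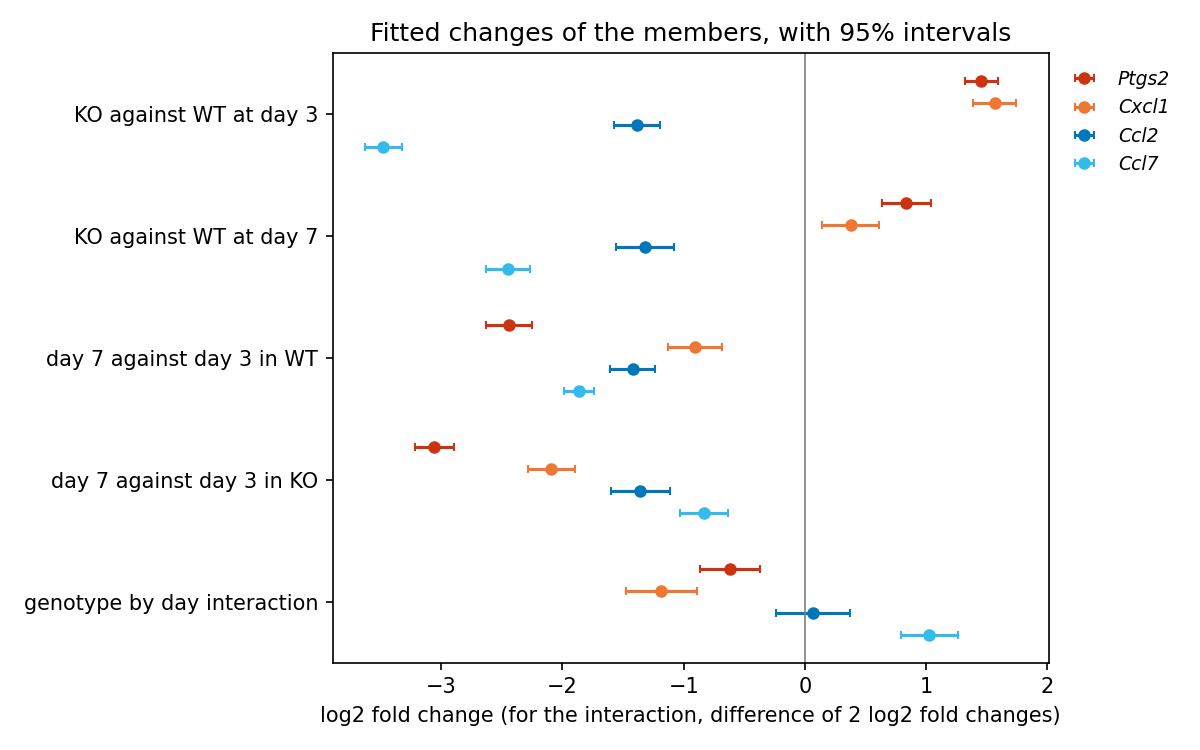
Log2 fold changes of Ptgs2, Cxcl1, Ccl2 and Ccl7 (points) with 95% intervals (bars) from edgeR, for the genotype comparison at each day, the day comparison in each genotype, and the interaction (day 7 minus day 3 of the log2 fold change). The interval crosses 0 for the Ccl2 interaction, which runs from -0.24 to 0.37, and for no other value.

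Levels of different genes were compared per kb of exon. In WT at day 3 the order was Ccl7 (136 ± 4.83 CPM per kb), Ccl2 (43.3 ± 2.06), Ptgs2 (8.78 ± 0.249) and Cxcl1 (4.91 ± 0.297), with gaps wider than the SDs. In the day 3 libraries labelled KO the order was Ptgs2 (24.0 ± 0.325 CPM per kb), Ccl2 (16.6 ± 0.999), Cxcl1 (14.6 ± 0.724) and Ccl7 (12.3 ± 1.84). Ccl7 thus passed from first to last, below Cxcl1 in every library (ratio 0.628 to 0.959). In WT at day 7 Ccl7 led again (37.5 ± 2.43 CPM per kb), before Ccl2 (16.2 ± 3.51), Cxcl1 (2.63 ± 0.462) and Ptgs2 (1.62 ± 0.267). In the day 7 libraries labelled KO, Ccl7 (6.87 ± 0.749 CPM per kb) and Ccl2 (6.47 ± 0.111) did not differ beyond their spread. Cxcl1 (3.42 ± 0.217) and Ptgs2 (2.87 ± 0.434) followed, and their ratio of 0.755 to 1.04 (Ptgs2 over Cxcl1) over these libraries shows that their order did not hold in every library. The ratio of Ccl2 to Ccl7 per kb was 0.307 to 0.325 over the WT day 3 libraries and 1.23 to 1.72 over the day 3 libraries labelled KO.

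Macrophages also express Ccl2 and Ccl7, and macrophage and myeloid markers fell with them. Of 22 such markers 20 were measured, none of them at 0 in every library. All 20 were called lower in the libraries labelled KO at day 3 (median log2 fold change -2.35) and 19 at day 7 (median -3.40), where 43.4% and 44.3% of all genes were called lower. Their summed level was 176 to 197 CPM in WT day 3 libraries, 41.7 to 51.1 in the labelled KO at day 3, 198 to 226 in WT at day 7 and 25.8 to 30.9 in the labelled KO at day 7. Between days in WT, 6 markers were called higher and 8 lower, where 32.3% and 34.9% of all genes were. In the labelled KO 2 were higher and 15 lower, where 40.6% and 39.3% of all genes were. Ccl7 fell between days from 109 ± 3.86 to 29.98 ± 1.94 CPM in WT and from 9.83 ± 1.47 to 5.49 ± 0.599 CPM in the labelled KO. Ptprc, the pan-leukocyte CD45, was at 1.58 ± 0.163 CPM in WT and 0.244 ± 0.0587 CPM in the labelled KO at day 3. By day 7 these levels were 1.20 ± 0.200 and 0.0614 ± 0.0465 CPM. In bulk RNA, fewer cells of a type and less RNA per cell cannot be told apart, and the part of macrophage RNA in the Ccl2 and Ccl7 levels was not tested. Stromal progenitor markers summed to 7282 to 7481 CPM in WT and 3299 to 3502 CPM in the labelled KO at day 3, and to 8467 to 9141 and 2655 to 2810 CPM at day 7. Osteoblast markers summed to 23490 to 24830 and 32500 to 35840 CPM at day 3, and to 34070 to 37150 and 64500 to 71140 CPM at day 7. In the labelled KO at day 3, 4 of 11 osteoblast markers were called higher and 5 lower. Their median log2 fold change was -0.25, opposite to the sum. At day 7, 10 were higher and 1 lower (median 1.36). The 14 stromal progenitor markers had 4 higher and 9 lower at day 3, and 6 and 8 at day 7. Over all genes 43% were higher and 43.4% lower at day 3, and 41.7% and 44.3% at day 7. Neither the stromal progenitor sum nor the osteoblast sum overlapped between genotypes at either day. The part of these marker shifts in the levels of the 4 genes was not tested. The 2 measured of 9 endothelial markers, Kdr and Flt1, summed to at most 1.14 CPM in WT and to between 5.50 and 18.7 CPM in the libraries labelled KO.

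**Figure D4:**
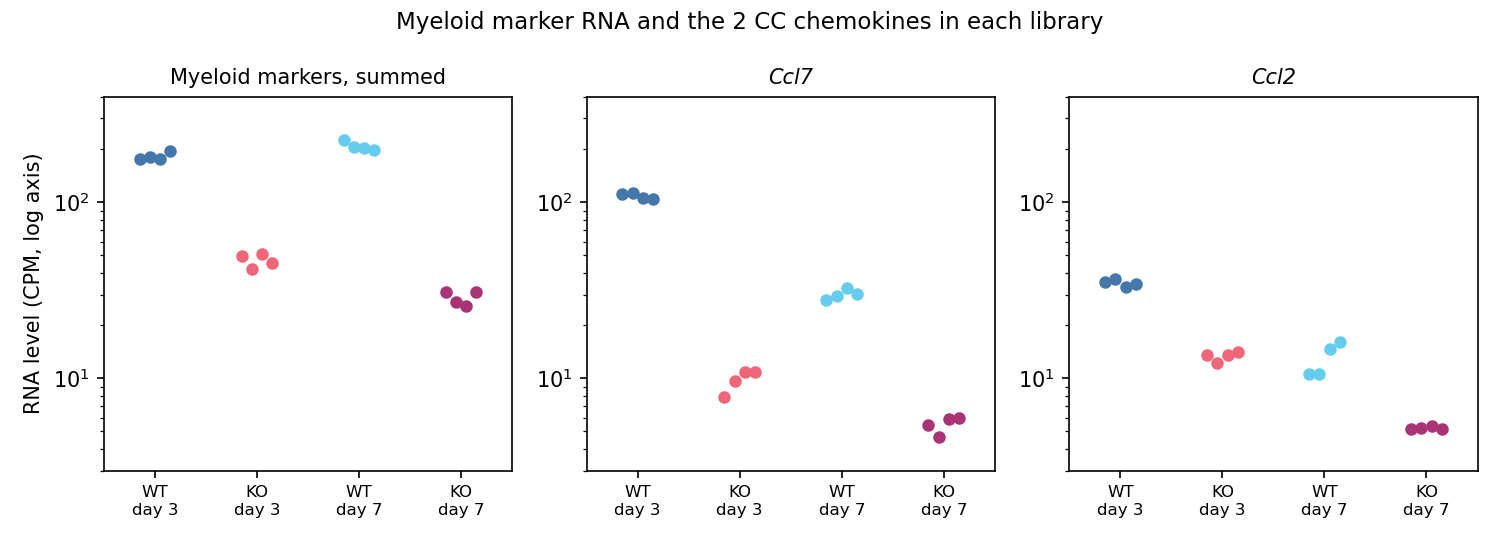
Summed CPM of 20 macrophage and myeloid markers, and CPM of Ccl7 and Ccl2, in each library (points) on log axes, for WT and libraries labelled KO at each day. The marker sum in WT runs from 176 to 197 CPM at day 3 and from 198 to 226 CPM at day 7, without overlap. Ccl7 and Ccl2 are lower at day 7 in both genotypes.

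Around Ptgs2, the prostaglandin pathway did not move as 1 group. The list was made with earlier results of these data known, as were the other lists. Of 20 other genes of synthesis, transport and reception, 17 were measured, and at day 3 the libraries labelled KO had 3 higher and 11 lower. The median log2 fold change was -0.78, against -0.004 over all genes, of which 43% were called higher and 43.4% lower. At day 7 there were 7 higher and 9 lower (median -0.70 against -0.03), where 41.7% and 44.3% of all genes were. With the authors' implied sizes the splits were 6 higher and 9 lower at day 3 and 8 and 8 at day 7.

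Ptgs1 and Ptges, enzymes on the route to prostaglandin E2, went the opposite way to Ptgs2 between genotypes. Ptgs1, the constitutive cyclooxygenase, was at 19.7 ± 0.802 CPM in WT and 10.5 ± 0.443 CPM in the labelled KO at day 3 (log2 fold change -0.91 ± 0.06, edgeR adjusted p = 3.25e-14). At day 7 it was at 28.3 ± 1.92 and 15.5 ± 0.755 CPM. Ptges, the inducible prostaglandin E synthase, fell from 60.8 ± 2.31 to 31.9 ± 0.978 CPM at day 3 (log2 fold change -0.93 ± 0.04, edgeR adjusted p = 5.44e-18). At day 7 it was at 62.6 ± 1.53 and 38.6 ± 2.09 CPM, a difference of -0.70 on the log2 scale that became -0.12 (edgeR adjusted p = 0.0515) with the authors' implied sizes. Between days in WT, Ptges RNA differed by 0.04 ± 0.04 on the log2 scale (edgeR adjusted p = 0.362) while Ptgs2 fell.

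Genes that take up and break down prostaglandins also differed between genotypes, in both directions. Slco2a1, the prostaglandin transporter that imports prostaglandins for breakdown, fell in the labelled KO from 161 ± 5.00 to 6.13 ± 0.490 CPM at day 3 and from 118 ± 6.05 to 4.39 ± 0.749 CPM at day 7. These were log2 fold changes of -4.71 ± 0.07 and -4.74 ± 0.08. Hpgd, the dehydrogenase that inactivates prostaglandins, was at 0.0887 ± 0.0133 CPM in WT and 6.80 ± 0.396 CPM in the labelled KO at day 7 (edgeR adjusted p = 3.79e-20). Ptgr1, a reductase of the same breakdown route chosen after its values were seen, fell from 66.6 ± 2.09 to 26.5 ± 0.947 CPM at day 3 and from 63.5 ± 2.07 to 15.3 ± 1.38 CPM at day 7 (edgeR adjusted p = 1.35e-20 and 1.24e-24). Ptgis, which makes prostacyclin, rose between days from 1.65 ± 0.176 to 16.4 ± 0.455 CPM in WT and from 1.03 ± 0.0721 to 30.3 ± 1.88 CPM in the labelled KO, opposite to Ptgs2.

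Among the receptors of prostaglandin E2, Ptger4 (EP4) fell with genotype and with day, from 7.07 ± 0.563 to 4.07 ± 0.913 CPM at day 3 and from 3.36 ± 0.133 to 0.997 ± 0.202 CPM at day 7. Ptger3 (EP3) rose in the labelled KO from 0.185 ± 0.0152 to 0.982 ± 0.120 CPM at day 3 and from 0.845 ± 0.121 to 3.65 ± 0.211 CPM at day 7. Ptger1 (EP1) was at 1.28 ± 0.0421 to 2.04 ± 0.433 CPM over the groups and was not called between genotypes (log2 fold changes -0.34 ± 0.17 and 0.10 ± 0.15, edgeR adjusted p = 0.0654 and 0.531). Its day 3 difference was called with total counts (-0.41, adjusted p = 0.0263), without WT day 3 library 3 (0.0341) and without day 7 library 15 labelled KO (0.0454). Its day 7 difference was called with the authors' implied sizes (0.68, adjusted p = 0.000238). Ptger2 was not analysed here. Ptgfr, the prostaglandin F receptor, fell from 62.0 ± 2.56 to 6.36 ± 0.597 CPM at day 3 and from 89.7 ± 5.85 to 37.3 ± 3.18 CPM at day 7.

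**Figure D5:**
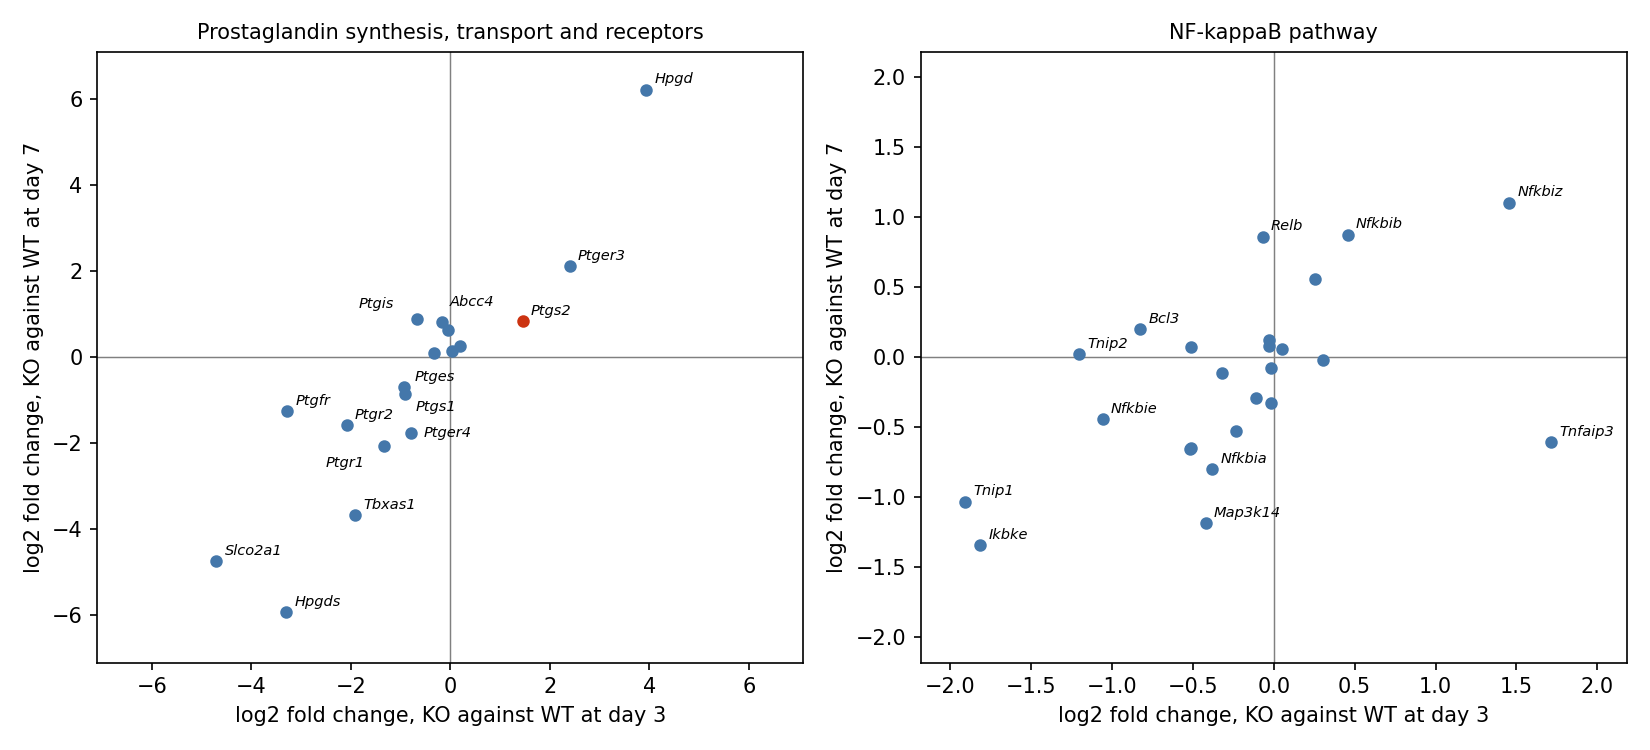
Log2 fold change of the labelled KO against WT at day 3 (horizontal) and day 7 (vertical) for the measured genes of the prostaglandin list with Ptgs2 in red (left) and of the NF-kappaB list (right). Genes with a change beyond 0.75 on either axis are named, and Slco2a1 at -4.71 and -4.74 lies opposite to Ptgs2 at 1.45 and 0.84.

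Of 32 other chemokines 13 were measured, with 3 higher and 7 lower in the labelled KO at day 3 (median log2 fold change -0.37) and 5 higher and 7 lower at day 7 (median -1.15). Over all genes 43% were higher and 43.4% lower at day 3, and 41.7% and 44.3% at day 7. With the authors' implied sizes the chemokine splits were 4 and 5, and 6 and 7. Ccl9, another monocyte-drawing CC chemokine of chromosome 11, was at 16.4 ± 0.953 CPM in WT and 3.96 ± 0.632 CPM in the labelled KO at day 3. It fell between days as well, to 5.35 ± 0.496 and 1.58 ± 0.142 CPM. Cxcl16, a membrane-bound CXC chemokine, fell in the labelled KO from 8.18 ± 0.643 to 1.92 ± 0.184 CPM at day 3 and from 10.3 ± 1.09 to 1.39 ± 0.174 CPM at day 7.

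Cxcl5, which like Cxcl1 draws neutrophils through CXCR2, did not follow Cxcl1. It was at 2.53 ± 0.607 CPM in WT and 0.523 ± 0.0986 CPM in the labelled KO at day 7 (log2 fold change -2.27 ± 0.25, edgeR adjusted p = 2.53e-10). At day 3 it was not called (log2 fold change -0.07 ± 0.23, edgeR adjusted p = 0.767). Ccl5, a T cell and monocyte chemokine, rose in the labelled KO at day 7 from 1.11 ± 0.172 to 4.22 ± 0.439 CPM (log2 fold change 1.93 ± 0.15, edgeR adjusted p = 2.6e-13). At day 3 Ccl5 was called lower, from 1.78 ± 0.186 to 1.36 ± 0.151 CPM (log2 fold change -0.37 ± 0.15, edgeR adjusted p = 0.0252). The day 3 differences of Cxcl5 and Ccl5 were not examined under other settings. The authors' implied sizes moved the day 3 median of all genes from -0.004 to 0.49, a shift larger than the Ccl5 change. The direction of Ccl5 at day 3 is therefore not settled over scalings. The receptors of the members, Ccr2 and Cxcr2, were not analysed here, and 2 of 15 chemokine receptors were measured, both atypical receptors that take up chemokines without G protein signalling. Ackr4, which takes up other CC chemokines, rose between days from 1.79 ± 0.111 to 36.9 ± 4.13 CPM in WT and from 1.25 ± 0.256 to 45.8 ± 3.53 CPM in the labelled KO. Ackr3, a receptor for CXCL12, fell in the labelled KO from 6.22 ± 0.688 to 2.05 ± 0.505 CPM at day 3 and from 11.5 ± 0.263 to 3.58 ± 0.907 CPM at day 7. In these last values 1 WT day 3 library (5.20 CPM, others from 6.49) and 1 day 7 library labelled KO (2.22 CPM, others from 3.92) stood apart.

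For interleukin 6 itself no level was analysed, but 18 of 20 genes of its cytokine family were measured. In the labelled KO 5 were higher and 11 lower at day 3 (median log2 fold change -0.44), where 43% and 43.4% of all genes were. At day 7, 4 were higher and 10 lower (median -0.40), where 41.7% and 44.3% of all genes were. The balance of the family turned to 9 higher and 7 lower, and 10 and 7, with the authors' implied sizes. Il6ra, the ligand-binding receptor chain, rose between days from 3.66 ± 0.182 to 12.3 ± 0.502 CPM in WT and from 4.63 ± 0.791 to 12.2 ± 0.701 CPM in the labelled KO. Il6st, the shared signalling chain gp130, rose in the labelled KO from 302 ± 4.39 to 413 ± 4.09 CPM at day 3 and from 257 ± 6.79 to 464 ± 8.68 CPM at day 7. Its day 3 log2 fold change of 0.45 ± 0.03 became -0.37 relative to the median of its chromosome, 13.

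Of the receptor chains that pair with gp130, Osmr and Lifr fell at both days and the others did not. Osmr, the oncostatin M receptor chain, fell from 244 ± 2.62 to 66.8 ± 1.86 CPM at day 3 and from 128 ± 3.53 to 55.9 ± 3.53 CPM at day 7. Lifr, the leukaemia inhibitory factor receptor, fell from 131 ± 7.77 to 36.5 ± 1.88 CPM and from 187 ± 13.3 to 80.6 ± 2.98 CPM. Its ligand Lif fell from 37.2 ± 0.859 to 18.7 ± 1.26 CPM at day 3 and from 34.2 ± 1.89 to 8.05 ± 0.329 CPM at day 7. All 6 of these falls were called (edgeR adjusted p at most 8.99e-17). Il6ra was called higher in the labelled KO at day 3 (log2 fold change 0.35 ± 0.10, edgeR adjusted p = 0.00231) and was not called at day 7 (-0.006 ± 0.08, adjusted p = 0.945). Il11ra1 and Cntfr, the chains for interleukin 11 and ciliary neurotrophic factor, were chosen after their values were seen. Il11ra1 was called lower at day 3 (log2 fold change -0.26 ± 0.05) and was not called at day 7 (0.04 ± 0.05, edgeR adjusted p = 9.67e-05 and 0.433). Cntfr was called at neither day (0.36 ± 0.26 and -0.66 ± 0.33, edgeR adjusted p = 0.203 and 0.0593). With the authors' implied sizes, Il6ra (0.57) and Il11ra1 (0.62) were called higher at day 7, and Il11ra1 (0.24) and Cntfr (0.85) at day 3.

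Interleukin 1, TNF and Toll-like receptor signalling can induce these genes. Of 28 measured genes listed for it, 6 were higher and 21 lower in the labelled KO at day 3 (median log2 fold change -0.88). Over all genes the shares were 43% and 43.4%. The list holds an antagonist as well as inducing parts, so its direction is not that of the inducing input. At day 7 there were 10 higher and 17 lower, where 41.7% and 44.3% of all genes were. With the authors' implied sizes the day 7 split turned to 15 and 10, while day 3 stayed at 9 and 16. Il1rn, the antagonist of the interleukin 1 receptor, fell from 120 ± 6.39 to 1.89 ± 0.105 CPM at day 3 and from 55.4 ± 5.80 to 3.64 ± 0.684 CPM at day 7, while the myeloid markers above also fell. Il1rap, the accessory chain of the same receptor, rose from 10.8 ± 0.333 to 15.1 ± 0.510 CPM at day 3 and from 11.5 ± 0.413 to 57.1 ± 5.34 CPM at day 7. The ligands Il1a, Il1b and Tnf were not analysed here.

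All 24 NF-kappaB pathway genes listed were measured. Over all genes 43% were called higher and 43.4% lower in the labelled KO at day 3, and 41.7% and 44.3% at day 7. Of the 24, 4 were higher and 13 lower at day 3 and 5 higher and 12 lower at day 7, with medians of -0.17 and -0.10. The authors' implied sizes turned these to 14 higher and 5 lower, and 15 and 4, so the list has no direction that holds over scalings. Rela, the activating subunit p65, was at 119 ± 1.74 and 116 ± 5.74 CPM on day 3 and at 109 ± 3.81 and 115 ± 8.25 CPM at day 7, and was called at neither day (edgeR adjusted p = 0.552 and 0.0737). Its call depended on the scaling and on single libraries. At day 3 it was called lower with total counts (-0.10, adjusted p = 0.0274) and higher with the authors' implied sizes (0.47, adjusted p = 4.2e-12). At day 7 it was called higher with DESeq2 size factors (0.09, adjusted p = 0.0435), with only the groups compared (0.10, 0.0463) and with the authors' implied sizes (0.66, 2.31e-16). It was also called higher at day 7 without WT library 10 (adjusted p = 0.0351) and without library 15 (0.0163) or 16 (0.0197) labelled KO. Nfkb1, the subunit p105/p50, was at 97.1 ± 0.870 and 120 ± 3.75 CPM at day 3 (edgeR adjusted p = 6.11e-10) and at 96.1 ± 2.08 and 94.9 ± 2.21 CPM at day 7 (edgeR adjusted p = 0.589). The day 7 difference was called lower with total counts (-0.15, adjusted p = 8.98e-05) and higher with the authors' implied sizes (0.56, adjusted p = 3.38e-14).

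The feedback inhibitors of NF-kappaB, themselves its targets, moved in different directions. Nfkbiz, the nuclear inhibitor-family protein that co-activates a subset of targets, moved in the same directions as Ptgs2: it rose in the labelled KO from 19.5 ± 0.888 to 53.5 ± 4.42 CPM at day 3 and from 7.89 ± 0.466 to 17.0 ± 1.02 CPM at day 7, and fell between days in both genotypes. Tnfaip3, the A20 enzyme that ends the signal, rose at day 3 from 16.01 ± 1.06 to 52.5 ± 1.95 CPM (log2 fold change 1.71 ± 0.06). At day 7 it fell from 22.2 ± 0.624 to 14.6 ± 1.68 CPM (log2 fold change -0.61 ± 0.06, edgeR adjusted p = 7.3e-10), which became -0.02 (adjusted p = 0.777) with the authors' implied sizes. Its genotype by day interaction was -2.32 ± 0.09. Nfkbia, the inhibitor IkappaBα, was at 46.8 ± 1.29 and 35.9 ± 1.13 CPM at day 3, a difference of -0.38 on the log2 scale that was 0.12 with the authors' implied sizes and 0.08 relative to its chromosome. It fell at day 7 from 57.0 ± 2.85 to 32.8 ± 2.03 CPM. Tnip1, which binds A20, fell from 75.5 ± 2.84 to 20.1 ± 0.544 CPM at day 3 and from 71.2 ± 2.63 to 34.8 ± 3.14 CPM at day 7.

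Among 14 other measured stromal genes known to respond to NF-kappaB, 5 were higher and 7 lower in the labelled KO at day 3. Over all genes the shares were 43% and 43.4%, so this split says little about the list. At day 7, 5 were higher and 9 lower, where 41.7% and 44.3% of all genes were. The splits were 6 and 7, and 5 and 7, with the authors' implied sizes. Icam1, an adhesion molecule for leukocytes, was at 22.2 ± 1.05 and 0.541 ± 0.192 CPM on day 3 and at 44.4 ± 0.509 and 0.715 ± 0.324 CPM at day 7. Ptx3, the long pentraxin, fell from 1159 ± 51.7 to 290 ± 2.81 CPM and from 505 ± 23.4 to 88.5 ± 2.55 CPM. Both were called at both days (edgeR adjusted p at most 5.97e-24).

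Of 16 other transcription factors known at these promoters, 8 were higher and 6 lower in the labelled KO at day 3, near the 43% and 43.4% of all genes. At day 7, 10 were higher and 4 lower, where 41.7% and 44.3% of all genes were. The splits were 12 and 4, and 13 and 2, with the authors' implied sizes. Cebpa, the C/EBPα factor, showed the widest difference of the list at day 3. It fell from 60.9 ± 2.35 to 7.50 ± 0.356 CPM at day 3 and from 64.02 ± 3.40 to 8.54 ± 0.941 CPM at day 7 (log2 fold changes -3.02 ± 0.06 and -2.90 ± 0.06, edgeR adjusted p = 1.11e-26 and 1.06e-26). Fos, a subunit of AP-1, fell from 17.5 ± 1.18 to 5.70 ± 0.293 CPM at day 3 (log2 fold change -1.61 ± 0.08, edgeR adjusted p = 6.29e-18). At day 7 its fall of -0.46 ± 0.07 on the log2 scale became 0.11 (adjusted p = 0.168) with the authors' implied sizes. Atf3, a stress-induced factor that binds cyclic AMP response elements, rose from 2.99 ± 0.511 to 12.7 ± 0.512 CPM at day 3 and from 6.30 ± 0.807 to 49.98 ± 7.34 CPM at day 7. Cebpb, the C/EBPβ factor, rose from 38.4 ± 5.13 to 49.8 ± 2.17 CPM at day 3 (edgeR adjusted p = 0.0187), a call that was lost without WT day 3 library 1 (adjusted p = 0.0523). At day 7 it rose from 24.1 ± 3.38 to 95.2 ± 16.9 CPM (edgeR adjusted p = 7.91e-09). Atf3 and Cebpb were thus highest at day 7 in the labelled KO, where Ptgs2 was at 11.9 ± 1.80 CPM. Medium and treatment also differed between days. The part of these factors in the levels of the members was not tested.

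Of 15 genes for decay and stability of cytokine mRNA, 9 were higher and 4 lower in the labelled KO at day 3 and 10 higher and 4 lower at day 7 (11 and 1, and 13 and 2, with the authors' implied sizes). Over all genes 43% were higher and 43.4% lower at day 3, and 41.7% and 44.3% at day 7. Zfp36, the tristetraprolin protein that binds AU-rich elements and destabilises such mRNAs, was at 25.2 ± 2.09 and 25.4 ± 1.34 CPM at day 3 (edgeR adjusted p = 0.794), but was called higher with the authors' implied sizes (0.51, adjusted p = 9.29e-10). At day 7 it rose from 17.2 ± 0.559 to 21.7 ± 1.75 CPM (edgeR adjusted p = 1.83e-05). Its relative Zfp36l1 fell from 158 ± 4.64 to 53.3 ± 0.987 CPM at day 3 and from 170 ± 6.15 to 35.9 ± 2.44 CPM at day 7 (edgeR adjusted p = 2.58e-24 and 8.76e-28). Dusp1, the phosphatase that inactivates p38, a kinase that stabilises these mRNAs, rose from 15.1 ± 0.388 to 40.6 ± 1.34 CPM at day 3 and from 12.4 ± 1.08 to 22.2 ± 1.53 CPM at day 7. Like Ptgs2, Dusp1 fell between days in both genotypes.

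The day 7 medium contained dexamethasone, and of 14 genes of the glucocorticoid receptor and its induced genes 9 rose and 2 fell between days in WT, where 32.3% of all genes were called higher and 34.9% lower (median log2 fold change 0.92, against -0.01 over all genes). In the labelled KO 8 rose and 6 fell (median 1.13), where 40.6% and 39.3% of all genes were called higher and lower. Tsc22d3, which encodes GILZ, rose from 42.6 ± 1.51 to 356 ± 5.88 CPM in WT and from 35.3 ± 2.39 to 518 ± 19.3 CPM in the labelled KO. Fkbp5, a co-chaperone of the receptor, rose in WT from 33.2 ± 0.472 to 165 ± 0.625 CPM, and in the labelled KO from 96.7 ± 2.15 to 314 ± 10.5 CPM. These rises stood beside the falls of the 4 inflammatory genes, and their part in those falls was not tested.

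Likeness to each member was measured as the root mean square difference of centred log2(CPM + 0.5) profiles over the 16 libraries. It was ranked among 12252 genes with a mean of at least 1 CPM in a group. Genes with clone or model names, such as those starting with Gm or ending in Rik, were left out. The nearest profiles to Ptgs2 were those of Slc16a6 (0.300), Sox11 (0.426) and Tfrc (0.433). Cxcl1 had the closest neighbours, Trip13 (0.116), Nasp (0.125) and Ube2s (0.167). Ccl2 was nearest to Arc (0.217), Hs6st1 (0.227) and Mmp12 (0.229), and Ccl7 to Mgst2 (0.213), Lcp1 (0.297) and Pde2a (0.347). Among the members themselves Ptgs2 and Cxcl1 differed by 0.698 and Ccl2 and Ccl7 by 0.848, while Ptgs2 and Ccl7 differed by 2.17. These profiles share their libraries and 4 group means, so the differences are descriptions.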

How the data were processed

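Per the labels' protocols, RNA was selected with oligo(dT) beads, made into strand-specific libraries and read as paired ends of 100 bases. The authors deposited raw counts of reads per gene, not normalised, and columns headed CPM, a signal that is each count column divided by 1 constant per library. STAR 2.4.2a, featureCounts, edgeR and mm10 are named in the submitters' processing notes, with annotation and strand setting not given in the sources used here. Per the file headers the table lists exon coordinates and gene lengths, and every gene had a summed count of at least 105, so lower genes were not analysed here.

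CPM were recomputed from counts with TMM factors (0.949 to 1.05). The fit used edgeR 4.0.16 in R 4.3.3, robust quasi-likelihood, 4 group means over 16 libraries, without a replicate block and without a further filter, and Benjamini-Hochberg adjustment over 13474 genes. It gave 5 comparisons: the genotypes at day 3 and at day 7, the days in WT and in KO, and their interaction. The fit was tested on simulated data. Alternatives were DESeq2 1.42.0 with its Wald test, DESeq2 size factors, total counts, the library sizes implied by the authors' signal columns (0.745 to 1.35 times the total), a filter of 1 CPM in at least 4 libraries, fits of only the groups compared, summed libraries that share a number, centring on chromosome medians, and leaving out each library.

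The members and the 16 gene lists were chosen with earlier results of these data known. Besides the members, the rule named Zfp384, direct receptors, anchor genes such as Ptgs1, Rela and Zfp36, up to 3 called genes per list and comparison with the largest change and at least 1 CPM, and the 3 nearest profiles per member. Not every gene so named is reported. Libraries 1 and 1b (chi-square per degree of freedom 2.89) and 10 and 10b (4.74) differed by more than sampling noise and were kept separate. The meaning of b was not given in the sources used here. Depth per library is given with the results. Sequences came from RefSeq promoter windows and GENCODE M21.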

Additional observations from a re-analysis of the deposited data

Results flagged for a closer look

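The genotype difference itself differed between days, by a called interaction in edgeR, for 38 of the 48 genes named with tests. Many of these genes were named for large changes in the same fit. Their count therefore cannot be set against the 66% of all genes with a called interaction. Values are day 7 minus day 3 of the log2 fold change. Among the members it was -0.62 for Ptgs2, 1.03 for Ccl7 and -1.19 for Cxcl1. Among chemokines and receptors it was -0.81 for Cxcl16, -2.19 for Cxcl5, 2.30 for Ccl5 and 0.82 for Ackr4. In the interleukin 6 family it was -1.10 for Lif, 0.63 for Lifr, 0.68 for Osmr, -0.36 for Il6ra, 0.30 for Il11ra1, -1.02 for Cntfr and 0.40 for Il6st. In the prostaglandin pathway it was 0.23 for Ptges, 1.56 for Ptgis, -0.98 for Ptger4 and 2.02 for Ptgfr, -0.73 for Ptgr1, and 2.28 for Hpgd, a fitted value that rests on WT levels near 0. In the interleukin 1 and NF-kappaB pathways it was 2.07 for Il1rn, 1.83 for Il1rap, -0.32 for Nfkb1, -0.42 for Nfkbia, -2.32 for Tnfaip3, -0.35 for Nfkbiz and 0.88 for Tnip1. It was 1.60 for Cebpb, 0.91 for Atf3, 1.15 for Fos, 0.32 for Zfp36, -0.67 for Zfp36l1, -0.59 for Dusp1, 0.81 for Tsc22d3 and -0.61 for Fkbp5. It was -0.51 for Ptx3, -1.51 for Ptprc and 0.25 for Zfp384.

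A library stood apart from the other 3 of its group in 5 of 192 groups of 4 tested by Dixon's ratio, where chance gives about 1 in 20. Ackr3 was at 5.20 CPM in WT day 3 library 4 and at 2.22 CPM in day 7 library 13 labelled KO. Ptgis was at 1.14 CPM in day 3 library 8 labelled KO, where the others were at 0.993 to 1.01 CPM. Ptprc was at 0.905 CPM in WT day 7 library 11, where the others were at 1.30 to 1.32 CPM. Cebpa was at 8.03 CPM in day 3 library 8 labelled KO, where the others were at 7.25 to 7.38 CPM. No group of Ptgs2, Ccl2, Ccl7 or Cxcl1 held such a library.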

How the results depend on the processing

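Log2 fold changes of the 4 members kept direction and call in 318 of 320 fits with a library left out. They kept direction in all 156 values under other settings and kept the call in all 136 of these that had a test. The other 20, relative to the chromosome median, had none. The exceptions with a library left out were the uncalled Ccl2 interaction, at -0.02 without WT day 7 library 9 or 10 (range -0.024 to 0.182). Relative to the chromosome median, Ccl2 moved to -0.95 (day 3) and -0.86 (day 7), Ccl7 to -3.04 and -1.99, and Cxcl1 to 1.41 (day 3), by construction. The counts of called genes and called list genes stayed within 1.5 times. Called genes were higher in the labelled KO in 49.7% at day 3 and 48.5% at day 7. These shares became 72.9% and 75.4% with the authors' implied library sizes, which shifted the median log2 fold change of all genes to 0.49 and 0.55, and the interaction share went from 49.3% to 58.2%. Between days in WT that share went from 48.1% to 34.5%. Those sizes moved 15 of the 17 member levels that moved by more than an SD, to, for WT and labelled KO at day 3 and then day 7, 31.2, 121, 5.39 and 14.3 CPM (Ptgs2), 93.4, 11.9, 24.1 and 6.62 (Ccl7), 3.99, 16.7, 2.01 and 3.91 (Cxcl1), and for Ccl2 29.9, 16.2 and, at day 7 in the labelled KO, 6.27. Total counts moved Ptgs2 to 97.5 CPM (labelled KO, day 3) and Ccl2 to 4.98 CPM (labelled KO, day 7). Genes other than the members were examined only in selected comparisons, which left out Ccl5 and Cxcl5 between genotypes at day 3. Among other genes, the direction reversed with the authors' sizes for Ptger1 (0.16), Rela (0.471, called), Il11ra1 (0.241, called) and Nfkbia (0.118) at day 3 and Nfkb1 (0.56, called), Il6ra (0.573, called) and Fos (0.113) at day 7, and with total counts for Zfp36 (-0.055, day 3), Ptger1 (-0.024), Il11ra1 (-0.084) and Rela (-0.046) at day 7. It reversed relative to the chromosome for Il6st (-0.37) and Nfkbia (0.078) at day 3, and with only the groups compared for Nfkb1 (0.004) and Il6ra (0.017) at day 7. With DESeq2 size factors or its Wald test Il6ra at day 7 was 0.005. With a library left out it reversed for Rela (range -0.048 to 0.003) and Zfp36 (range -0.014 to 0.071, below 0 at -0.014, -0.006 and -0.005) at day 3 and for Il6ra (range -0.03 to 0.032) and Il11ra1 (range -0.012 to 0.077) at day 7, none of them called. Calls gained by Rela, Ptger1, Nfkb1 and Zfp36 are given with their values. Cntfr at day 7 was called with total counts (adjusted p = 0.0257), with summed libraries (0.0488) and in 3 of 16 fits with a library left out (lowest 0.00834, without library 14 labelled KO). Its called interaction was lost in 8 of those 16. The cause was not tested. Other calls lost were the Il6ra interaction (authors' sizes, adjusted p = 0.0943, and without day 3 library 6 labelled KO, 0.0903) and the Hpgd interaction (without WT day 3 library 1, 0.47). No paired analysis was possible because the groups share no replicate codes. Levels near 3 CPM, as of Cxcl1 at day 7, rest on 77 to 126 reads per library.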
